A study of Mus musculus with 2 samples.

Results

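The genes described here are 40 cell cycle genes, all of which were found among the 23946 genes counted in 2 single-cell RNA-Seq libraries of mouse heart leukocytes. They were chosen by name. They comprise 13 genes of S phase, 21 genes of G2 and M phase, 4 cyclins of G1 and the CDK inhibitors Cdkn1a and Cdkn1b. CD45+ cells were sorted from the hearts of WT female C57BL6 mice aged 8 to 16 weeks, 24 hours after an intraperitoneal injection. The ISO mice, whose library carries the label TTS, received 200 mg/kg isoproterenol, a β-adrenergic agonist that gives a Takotsubo-like cardiomyopathy in female mice, and vehicle was given to the control mice. The cells of 3 hearts were pooled and 15000 cells were loaded per library. With 1 library per group there was no replicate check, so each difference below is between these libraries, no test was run, and the 95% intervals in parentheses cover counting error only. Where 2 values are given together, the control comes first and the ISO library second.

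The cell cycle is driven by cyclins bound to cyclin-dependent kinases (CDKs). D-type cyclins respond to growth factors in G1 and, with cyclin E, release E2F factors, which switch on the genes of DNA replication. The genes of mitosis follow in G2, many of them through a promoter element called CHR (cell cycle genes homology region) and CCAAT boxes. The inhibitors p21, encoded by Cdkn1a, and p27, encoded by Cdkn1b, restrain CDKs. Resident macrophages of the heart can renew by division in place, and neutrophils that have left the bone marrow no longer divide.

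The promoters of 6 genes are printed as examples of G2/M promoters with a CHR word and of S promoters with an E2F word. Most promoters of each group lacked its word, as counted below. Each is the 250 bases before the start of the RefSeq transcript on GRCm38.p6, read 5′ to 3′ on the strand of the gene. Capitals mark TTTGAA (the only CHR word searched), CCAAT and 4 E2F words (TTTCCCGC, TTTGGCGC, TTTCGCGC and TTTGCCGC), on either strand. Words that overlap were counted separately, and other words were not searched. Mki67, Top2a, Ccnb2 and Cdc20 belong to G2/M, and Mcm5 and Mcm6 to S phase.
Mki67 (chr7:135716380-135716629, minus strand): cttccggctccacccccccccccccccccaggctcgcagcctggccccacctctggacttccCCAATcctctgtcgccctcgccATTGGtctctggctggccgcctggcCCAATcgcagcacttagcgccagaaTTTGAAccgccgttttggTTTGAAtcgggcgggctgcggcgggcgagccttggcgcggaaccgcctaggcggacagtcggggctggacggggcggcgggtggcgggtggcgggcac
Top2a (chr11:99024190-99024439, minus strand): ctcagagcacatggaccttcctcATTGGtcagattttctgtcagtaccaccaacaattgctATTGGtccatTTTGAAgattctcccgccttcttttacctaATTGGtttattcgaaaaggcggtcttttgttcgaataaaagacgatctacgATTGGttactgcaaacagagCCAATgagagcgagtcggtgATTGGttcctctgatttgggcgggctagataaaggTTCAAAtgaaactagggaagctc
Ccnb2 (chr9:70421555-70421804, minus strand): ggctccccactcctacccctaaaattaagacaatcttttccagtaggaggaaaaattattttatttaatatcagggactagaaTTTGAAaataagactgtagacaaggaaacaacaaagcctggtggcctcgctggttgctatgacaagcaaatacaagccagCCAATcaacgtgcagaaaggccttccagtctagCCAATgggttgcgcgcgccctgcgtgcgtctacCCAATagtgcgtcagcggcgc
Cdc20 (chr4:118437344-118437593, minus strand): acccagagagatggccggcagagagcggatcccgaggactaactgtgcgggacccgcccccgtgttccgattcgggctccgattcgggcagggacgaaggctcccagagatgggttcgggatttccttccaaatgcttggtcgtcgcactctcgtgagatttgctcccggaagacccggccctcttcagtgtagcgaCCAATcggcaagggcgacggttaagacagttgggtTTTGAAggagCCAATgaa
Mcm5 (chr8:75109259-75109508, plus strand): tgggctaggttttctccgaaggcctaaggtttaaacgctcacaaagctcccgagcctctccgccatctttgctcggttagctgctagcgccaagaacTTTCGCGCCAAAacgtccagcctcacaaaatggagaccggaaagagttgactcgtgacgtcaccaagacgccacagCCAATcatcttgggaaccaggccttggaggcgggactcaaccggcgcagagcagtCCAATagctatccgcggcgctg
Mcm6 (chr1:128359706-128359955, minus strand): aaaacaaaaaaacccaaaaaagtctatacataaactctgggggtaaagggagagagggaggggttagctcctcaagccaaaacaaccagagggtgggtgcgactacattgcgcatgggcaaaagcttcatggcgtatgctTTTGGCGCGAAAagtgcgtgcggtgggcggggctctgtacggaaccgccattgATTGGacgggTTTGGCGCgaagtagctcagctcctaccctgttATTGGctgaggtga

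Of the 40 genes, 33 had a promoter in the table. CHR words were found in the promoters of 6 of 18 G2/M genes (Mki67, Top2a, Cdk1, Ccnb2, Cdc20 and Ube2c) and of 1 of 11 S genes (Mcm2), beside 15.99% of all 32851 promoters of that length. A CCAAT word stood in 16 of 18 G2/M and 8 of 11 S promoters, beside 33.85% of all promoters. E2F words were in 3 of 11 S promoters (Mcm5, Mcm6 and Mcm7) and in 1 of 18 G2/M promoters (Cdk1), beside 1.86% of all. The sequences above thus hold 2 CHR and 3 CCAAT words in Mki67, 2 and 6 in Top2a, 1 and 3 in Ccnb2, and 1 and 2 in Cdc20. No CHR word was found in Mcm5 or Mcm6, each of which had 2 CCAAT words, with 2 and 3 E2F words. A match is a run of letters and not evidence that a factor binds there.

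After the filters, 5641 control and 5437 ISO cells remained, with a median of 4790 and 8537 UMIs, and 15 barcodes occurred in both libraries. Ptprc, which encodes CD45, had a UMI in 91.0% of control and 88.8% of ISO cells, but in only 4 of 33 and 1 of 15 cells gated as stromal. Cells were assigned to classes by markers. Macrophage-gated cells numbered 987 in the control and 2204 in the ISO library, monocytes 112 and 1161, dendritic cells 136 and 577, neutrophils 124 and 167, B cells 2010 and 65, T cells 212 and 56, NK cells 436 and 41, and ILC2 152 and 89. Barcodes with markers of 2 lineages, 1337 and 874, were kept apart. A gate is a range on a score, and 147 ISO but 5 control macrophage-gated cells lay within 20% of its limit. The median monocyte marker score of macrophage-gated cells was 2.54 in the control and 9.41 in the ISO library, so the class did not hold the same mixture. Dendritic-gated cells within 20% of their limit were 14 of 136 in the control and 99 of 577 in the ISO library. Their class had a median monocyte score of 3.33 and 5.07, so its mixture may differ too. Macrophage-gated cells were split by the higher of their scores on resident and on other markers. The resident markers were Timd4, Lyve1, Folr2, Cd163, Gas6 and Cbr2, and the others Ccr2, Arg1, Spp1, Vegfa and Inhba. Resident macrophages were 780 of the control and 260 of the ISO macrophage-gated cells. Those higher on the other markers, 104 and 1929, are called cells with Ccr2 or Arg1 markers, although such a cell need not hold either gene. Values are given within these subsets too.

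Mki67 and Top2a are the genes most often used to find dividing cells. Mki67 (chr7:135689784-135716361 on GRCm38, minus strand) encodes the Ki-67 protein that coats mitotic chromosomes. Top2a (chr11:98992943-99024189, minus strand) encodes the topoisomerase that untangles replicated DNA. To set cells of unequal depth side by side, each cell was thinned to 1000 UMIs. A UMI of either gene was then found in 36 of 987 control macrophage-gated cells, or 3.65% (2.57 to 5.01), and in 55 of 2204 ISO cells, or 2.50% (1.89 to 3.24). The log2 ratio of ISO to control was -0.55 (-1.18 to 0.10), and the intervals of the shares overlapped. In dendritic-gated cells the shares were 4.41% (1.64 to 9.36) and 3.64% (2.27 to 5.51). Monocyte-gated cells had 1 of 112 in the control and 25 of 1161, or 2.15%, in the ISO library. The neutrophil share, 3.23% of 124 control cells and 3.59% of 167 ISO cells, shows how often these UMIs turn up in cells known not to divide. The macrophage and dendritic shares lay at about this level, which rests on few neutrophils. A UMI of either gene thus did not by itself set these classes apart from neutrophils here. ISO neutrophil-gated cells also held monocyte markers, with a median monocyte score of 10.0 against 4.97 in the control, and the part of these in the share was not tested. Before thinning, when the median neutrophil held 2729 control and 7328 ISO UMIs, the neutrophil shares were 7.26% and 16.2%. The macrophage shares were then 15.2% and 15.1%, at median depths of 6506 and 9234 UMIs.

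Among lymphoid cells, 17 of 2004 thinned control B cells (0.848%) and 0 of 65 ISO B cells held a UMI of either gene, where 0 of 65 allows a share of up to 4.62%. T cells gave 6 of 210 and 0 of 56, which allows up to 5.36%. ILC2 gave 6 of 152 in the control and 1 of 89 in the ISO library. NK cells went the other way, with 5 of 435 control cells, or 1.15%, and 4 of 41 ISO cells, or 9.76%, a log2 ratio of 3.09 (0.75 to 5.30) that rests on 4 cells. Over all gated cells the shares were 1.96% and 2.57%, a log2 ratio of 0.39 (-0.04 to 0.82). With the ISO classes weighted as in the control, the ISO share became 1.93%, so the pooled value depended on the weights of the classes. This value has no interval. In it the 4 of 41 ISO NK cells carry the weight of 435 control cells, and the 0 of 65 ISO B cells that of 2004.

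The pooled shares of Mki67 and Top2a lay on opposite sides. Over all gated cells, thinned Mki67 was in 1.15% of control and 2.09% of ISO cells, a log2 ratio of 0.86 (0.34 to 1.40). Top2a was in 1.05% and 0.527%, a log2 ratio of -1.0 (-1.79 to -0.24). These were not weighted by class. Within macrophage-gated cells Mki67 was in 2.84% and 2.13% and Top2a in 1.01% and 0.363%, with log2 ratios of -0.41 and -1.48 whose intervals took in 0. The summed levels over all gated cells were lower for both genes, with log2 ratios of -0.67 for Mki67 and -1.99 for Top2a. The cells that held Mki67 also differed in what else they held. In unthinned macrophage-gated cells, 68 of 127 control cells with Mki67 (53.5%) had no UMI of the 19 other G2/M genes counted per cell, against 211 of 262 ISO cells (80.5%). For Top2a these shares were 29.4% of 51 and 68.2% of 85 cells. Mki67 without any of the others was the rule in monocytes of both libraries (85.7% of 7 and 89.4% of 104 cells). The same held for neutrophils (75% of 8 and 83.3% of 24 cells). The largest number of Mki67 UMIs in 1 macrophage-gated cell was 34 in the control and 14 in the ISO library, and cells with 3 or more Mki67 UMIs held 69.6% and 45.8% of them. Control B cells showed the pattern for Top2a, which stood alone in 53 of 63 cells.

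Because Mki67 without other G2/M genes occurred in 6 of 124 control and 20 of 167 ISO neutrophils, cells with several G2/M genes were counted. Cenpa, which encodes the histone variant of centromeres, was left out of these counts since it was detected widely, which left 20 genes. After thinning to 1000 UMIs, 2 or more of the 20 genes were found in 16 of 987 control macrophage-gated cells, or 1.62% (0.929 to 2.62), and in 4 of 2204 ISO cells, or 0.181% (0.0495 to 0.464). The log2 ratio was -3.16 (-5.20 to -1.53), and the intervals of the shares did not overlap. Dendritic-gated cells gave 7 of 136, or 5.15%, and 6 of 577, or 1.04%, a log2 ratio of -2.31 (-4.16 to -0.51). Neutrophils gave 1 of 124, or 0.806% (0.0204 to 4.41), and 0 of 167, which allows up to 1.80%. The neutrophil interval took in the control macrophage share but not the control dendritic share. The ISO shares of macrophage- and dendritic-gated cells were thus no higher than this neutrophil limit. Over all gated cells the shares were 0.885% and 0.252%, and 0.118% in the ISO library with the classes weighted as in the control. The weighted value has no interval, and in it small ISO classes carry the weight of larger control classes.

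A stricter count used the whole depth. A G2/M cell, named for the genes counted and not for a phase, was defined as 1 with 5 or more UMIs on 3 or more of the 20 genes. By this rule there were 101 G2/M cells in the control and 37 in the ISO library, although over all cells the ISO library was deeper. Dendritic-gated cells, T cells and ILC2 were instead deeper in the control, with a median of 10970 and 8370 UMIs in dendritic-gated cells. The part of depth in these unthinned counts was not tested. Neutrophils held 0 of 124 and 0 of 167, which allow up to 2.42% and 1.80%. Macrophage-gated cells held 30 in the control (3.04%) and 11 in the ISO library (0.499%), a log2 ratio of -2.61 (-3.75 to -1.57). Dendritic-gated cells held 10 (7.35%) and 11 (1.91%), a log2 ratio of -1.95 (-3.32 to -0.55). For T cells the counts were 6 of 212 and 1 of 56, for NK cells 3 of 436 and 1 of 41, for ILC2 3 of 152 and 1 of 89, and for B cells 3 of 2010 and 0 of 65. Those of the smaller classes are too few to set the libraries apart. In monocytes the rule found 1 of 112 control and 0 of 1161 ISO cells, and the latter allows a share of up to 0.258%. Of all G2/M cells, 29.7% in the control and 29.7% in the ISO library were macrophage-gated, and 9.90% and 29.7% were dendritic-gated. Barcodes of 2 lineages made up 42.6% and 27.0%. Of all cells that passed the filters, macrophage-gated cells were 17.5% and 40.5%, and dendritic-gated cells 2.41% and 10.6%.

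**Figure D1:**
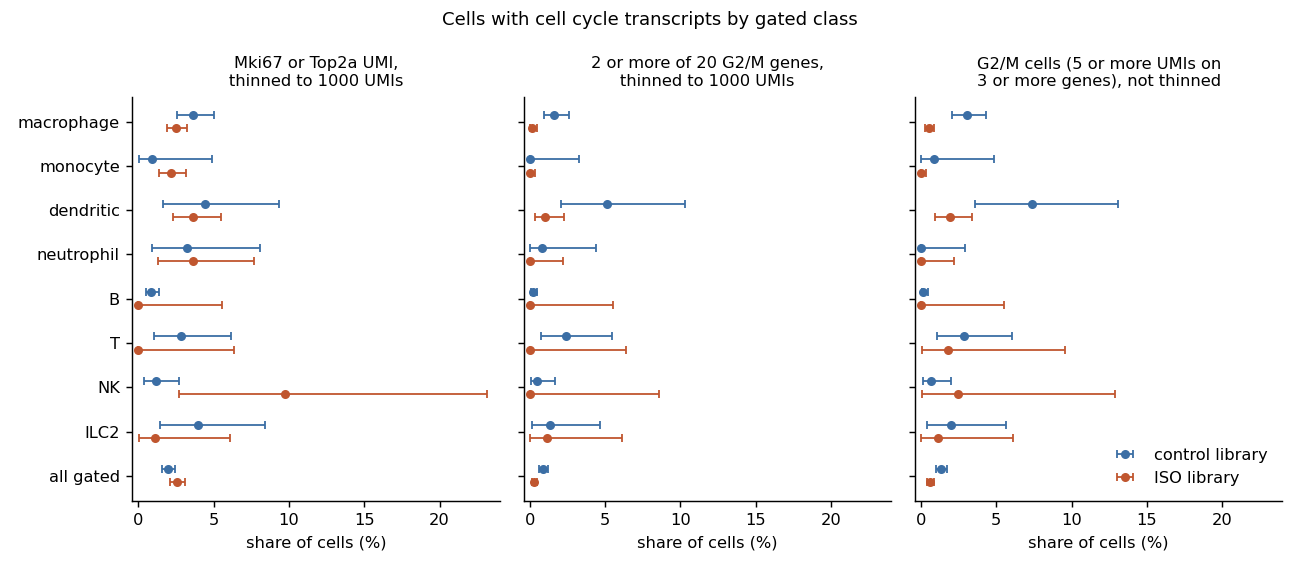
Share of cells (%, horizontal axis) with cell cycle transcripts in each gated class, for the control (blue) and ISO (red) libraries, by 3 rules: a Mki67 or Top2a UMI after thinning to 1000 UMIs, 2 or more of 20 G2/M genes after thinning, and G2/M cells without thinning. Points are shares and bars are exact 95% counting intervals; the macrophage libraries overlap under the first rule (3.65% and 2.50%) and stand apart under the others (3.04% and 0.499% for G2/M cells).

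Within the macrophage gate, G2/M cells were 21 of 780 resident control cells (2.69%) and 3 of 260 resident ISO cells (1.15%), a log2 ratio of -1.22 whose interval (-3.61 to 0.52) took in 0. Among cells with Ccr2 or Arg1 markers they were 8 of 104 (7.69%) and 8 of 1929 (0.415%), a log2 ratio of -4.21 (-5.83 to -2.60). The latter set is thus where the libraries stood furthest apart, on 104 control cells. Type 1 dendritic cells, marked by Xcr1 and Clec9a, gave 7 of 59 (11.9%) and 5 of 153 (3.27%), a log2 ratio of -1.86 (-3.86 to 0.01). Type 2 dendritic cells, marked by Cd209a, gave 3 of 53 and 6 of 354, a log2 ratio of -1.74.

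Raising the minimum widened the gap in macrophage-gated cells. With at least 2 UMIs on the 20 genes, 11.4% of control and 7.40% of ISO cells qualified, a log2 ratio of -0.63. With at least 5 UMIs the shares were 3.75% and 1.23%, a log2 ratio of -1.61. At least 20 UMIs were held by 13 control cells (1.32%) and 4 ISO cells (0.181%), a log2 ratio of -2.86. In dendritic-gated cells the log2 ratio was -0.98 at 2 UMIs, -2.09 at 5 UMIs and -1.82 at 20 UMIs, where 5 control and 6 ISO cells were left and the interval (-3.80 to 0.23) took in 0. These counts were not thinned, and dendritic-gated cells were deeper in the control.

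**Figure D2:**
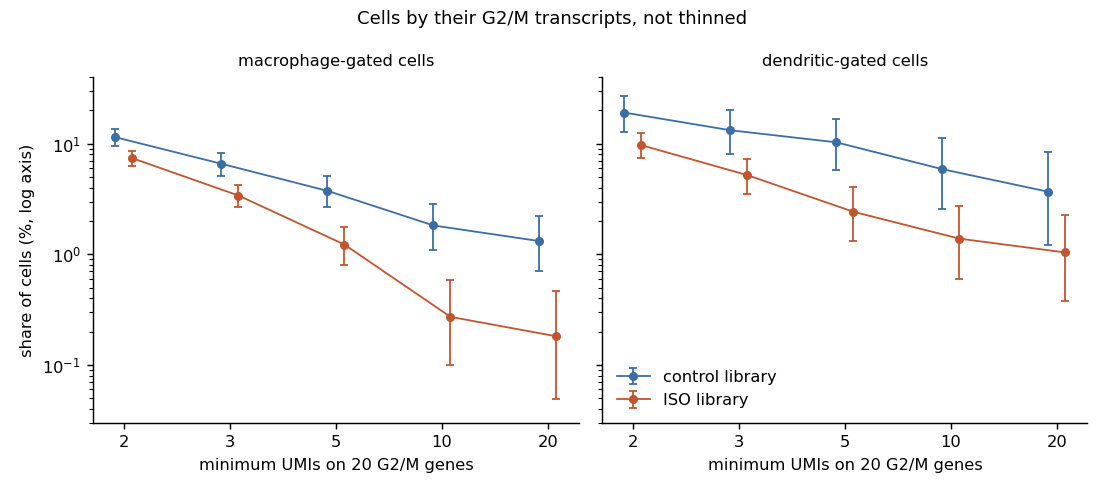
Share of macrophage-gated (left) and dendritic-gated (right) cells (%, log axis) with at least 2, 3, 5, 10 or 20 UMIs on 20 G2/M genes, for the control (blue) and ISO (red) libraries, without thinning, with bars for exact 95% counting intervals. In macrophage-gated cells the control share is 11.4% against 7.40% at 2 UMIs and 1.32% against 0.181% at 20 UMIs.

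The G2/M cells held most G2/M transcripts of the control but not of the ISO macrophage-gated cells. They carried 73.5% of these UMIs in the control and 28.1% in the ISO library, and 89.2% and 62.7% in dendritic-gated cells. They were deeper than their neighbours, with a median of 12665 UMIs against 6441 in control and 21882 against 9216 in ISO macrophage-gated cells, and the part of doublets in that was not tested beyond Scrublet, whose highest scores included 0 of 30 and 1 of 11 of them. In the cells that were not G2/M cells the difference was smaller. That set was chosen by its low G2/M UMIs and lost more of them in the control, so a smaller difference follows from the choice. The summed level of the 20 genes in these cells was 51.1 and 33.3 CPM (UMIs per 1000000 UMIs) in macrophage-gated cells, a log2 ratio of -0.62 (-0.79 to -0.44). In dendritic-gated cells it was 57.2 and 37.8 CPM, a log2 ratio of -0.60 (-0.98 to -0.20).

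G2/M cells were chosen without S genes, so their S genes are a separate readout. In control macrophage-gated cells the 13 S genes summed to 1165 CPM in G2/M cells and 292 CPM in the others, a log2 ratio of 1.99 (1.85 to 2.14). In ISO macrophage-gated cells they summed to 686 and 161 CPM, a log2 ratio of 2.09 (1.84 to 2.32). Dendritic G2/M cells held 1314 against 415 CPM in the control and 2260 against 380 CPM in the ISO library, log2 ratios of 1.66 and 2.57. The dendritic G2/M cells of the libraries may thus not be in the same phase, which was not tested. These dendritic sums pool the UMIs of 10 control and 11 ISO G2/M cells and leave out the spread between cells. The D-type cyclins were not raised beyond counting error in the control, with log2 ratios of -0.03 in macrophage-gated and -0.29 in dendritic-gated G2/M cells, and 0.85 and -0.07 in the ISO library.

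The levels of the 40 genes were next compared over whole classes. A gene was called higher or lower when its CPM differed 2-fold or more, with at least 20 UMIs over both libraries. In macrophage-gated cells 39 genes had enough UMIs and 28 of them were lower in the ISO library, while 22.0% of all 12913 genes were lower. Only Ccne1, which encodes cyclin E1, was higher, on 2 control and 21 ISO UMIs, a log2 ratio of 1.77 (-0.26 to 4.91), while 8.70% of all genes were higher. The median log2 ratio was -1.48 for the 39 genes and -0.28 for all genes. In dendritic-gated cells 20 of 39 genes were lower and 2 higher, beside 10.8% and 7.02% of all 10068 genes, with medians of -1.12 and -0.07. In monocytes 18 genes could be compared, of which 4 were lower (Cdkn1b, Mcm4, Mcm7 and Tk1) and 0 higher, beside 17.6% and 10.5% of all genes. Over all gated cells 27 of 40 were lower, beside 31.5% of all genes, and 0 were higher, beside 7.66%.

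In macrophage-gated cells 18 of 20 G2/M genes were lower by 2-fold or more, with a median log2 ratio of -2.31. Cenpf, a kinetochore protein, had 85 UMIs in the control and 8 in the ISO library, or 10.7 CPM (8.51 to 13.2) and 0.326 CPM (0.141 to 0.643), a log2 ratio of -5.03 (-6.29 to -3.99). Cenpe, the kinetochore motor, was at 11.4 and 0.531 CPM, a log2 ratio of -4.43. These were the lowest ratios of the G2/M genes, and the intervals of the libraries did not overlap. Mki67 and Top2a had ratios nearer to 0. Mki67 stood at 45.8 CPM (41.2 to 50.7) and 19.7 CPM (18.0 to 21.6), a log2 ratio of -1.22 (-1.41 to -1.02). Top2a stood at 23.8 CPM and 5.71 CPM, a log2 ratio of -2.06 (-2.39 to -1.74).

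Genes that regulate mitosis follow. Ube2c, the ubiquitin-conjugating enzyme that serves the anaphase-promoting complex, was at 11.8 and 1.51 CPM in macrophage-gated cells, a log2 ratio of -2.96. Its activator Cdc20 had 39 and 17 UMIs, a log2 ratio of -2.82. The mitotic cyclin Ccnb2 was at 9.91 and 1.75 CPM, a log2 ratio of -2.50, and its kinase Cdk1 at 6.65 and 1.88 CPM, a log2 ratio of -1.82. Each was lower in the ISO library beyond the counting error of UMIs, which leaves out their clustering in few cells. Birc5 (survivin) and Cdca8 (borealin) are partners of the kinase Aurkb in the chromosomal passenger complex. Birc5 was at 11.2 and 2.24 CPM and Cdca8 at 9.66 and 3.10 CPM, log2 ratios of -2.31 and -1.64. Tpx2, which helps build the spindle, gave -2.66. The G2/M genes with 20 UMIs or more over both libraries but under 50 in the higher one ranged from -3.84 (Hmmr, 42 and 9 UMIs) to -0.93 (Aurka, 26 and 42 UMIs). Plk1, with 6 and 8 UMIs, was too low to compare. Cenpa, at 35.4 and 24.5 CPM, gave -0.53 and was among those under 2-fold.

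In dendritic-gated cells 19 of 20 G2/M genes were lower by 2-fold or more, with a median log2 ratio of -2.33. Aurka and Plk1 were called there but not in macrophage-gated cells, and Bub1, called in macrophage-gated cells, had too few UMIs. Control cells held 86.6 CPM of Mki67 (72.6 to 102.5) and ISO cells 22.8 CPM (18.9 to 27.2), a log2 ratio of -1.93 (-2.29 to -1.56). Top2a was at 76.4 and 19.5 CPM, a log2 ratio of -1.97. Cenpf had 62 and 7 UMIs, a log2 ratio of -4.90, and Birc5 was at 39.8 and 9.11 CPM, a log2 ratio of -2.13. Cenpa gave -0.41, the exception. These levels rested on few cells. A single cell held 271 of the 734 control UMIs of the 20 genes, or 36.9%, and without the highest cell of each library the log2 ratio of the sum was -1.80 (-1.99 to -1.61). In monocytes Mki67 was at 17.7 and 17.0 CPM, a log2 ratio of -0.06 (-0.85 to 0.85), and 17 of the 21 G2/M genes had under 20 UMIs.

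S-phase genes were lower along with G2/M genes in macrophage-gated cells, while in dendritic-gated cells few differed by 2-fold. The 6 MCM genes encode the ring-shaped helicase that opens DNA at origins. In macrophage-gated cells 5 of 6 were lower by 2-fold or more. Mcm7 was at 19.7 and 5.06 CPM, a log2 ratio of -1.96 (-2.31 to -1.61), and Mcm2 at 16.6 and 5.06 CPM, a log2 ratio of -1.71. Mcm5 gave -1.32, and Mcm4 and Mcm6 each gave -1.18. Mcm3, at 35.7 and 21.2 CPM, gave -0.75. In dendritic-gated cells 0 of 6 passed 2-fold in either direction. Mcm3 stood at 44.3 CPM (34.4 to 56.0) and at 59.4 CPM (53 to 66.4), a log2 ratio of 0.42 (0.04 to 0.82). The other MCM genes lay between -0.24 (Mcm7) and 0.37 (Mcm6), and all 5 of their intervals took in 0. The 6 genes together were at 133 and 57.2 CPM in macrophage-gated cells, a log2 ratio of -1.21, and at 201 and 229 CPM in dendritic-gated cells, a log2 ratio of 0.19 (0.01 to 0.37).

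Of the replication clamp and 4 genes of nucleotide supply, Rrm1 was lower by 2-fold or more in macrophage-gated cells and Rrm2 in dendritic-gated cells. Pcna, the sliding clamp, was at 122.8 and 62.4 CPM in macrophage-gated cells and at 114.9 and 66.4 CPM in dendritic-gated cells, log2 ratios of -0.98 and -0.79. Rrm1, the large subunit of ribonucleotide reductase, was at 22.2 and 8.65 CPM in macrophage-gated cells, a log2 ratio of -1.36, and gave -0.79 in dendritic-gated cells. Tk1, thymidine kinase, gave -0.70 and -0.57, and in monocytes it was at 69.5 and 29.2 CPM, a log2 ratio of -1.25 (-1.68 to -0.81). Tyms, thymidylate synthase, gave -0.26 (-0.66 to 0.16) and -0.93. The helicase cofactor Gins2 and the uracil remover Ung went in opposite directions in these classes. Ung gave -1.42 in macrophage-gated cells, on 33 and 38 UMIs, and 1.03 (0.11 to 2.09) in dendritic-gated cells, on 11 and 76 UMIs, and was under 2-fold once 0.5 UMI was added. Gins2 gave -1.15 and 1.83 (0.17 to 4.17), the latter on 3 and 36 UMIs. Rrm2, the small subunit of ribonucleotide reductase, was at 2.51 and 1.63 CPM in macrophage-gated cells, a log2 ratio of -0.62 (-1.43 to 0.23), and in dendritic-gated cells it was the only S gene lower by 2-fold or more, a log2 ratio of -1.17 on 18 and 27 UMIs.

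**Figure D3:**
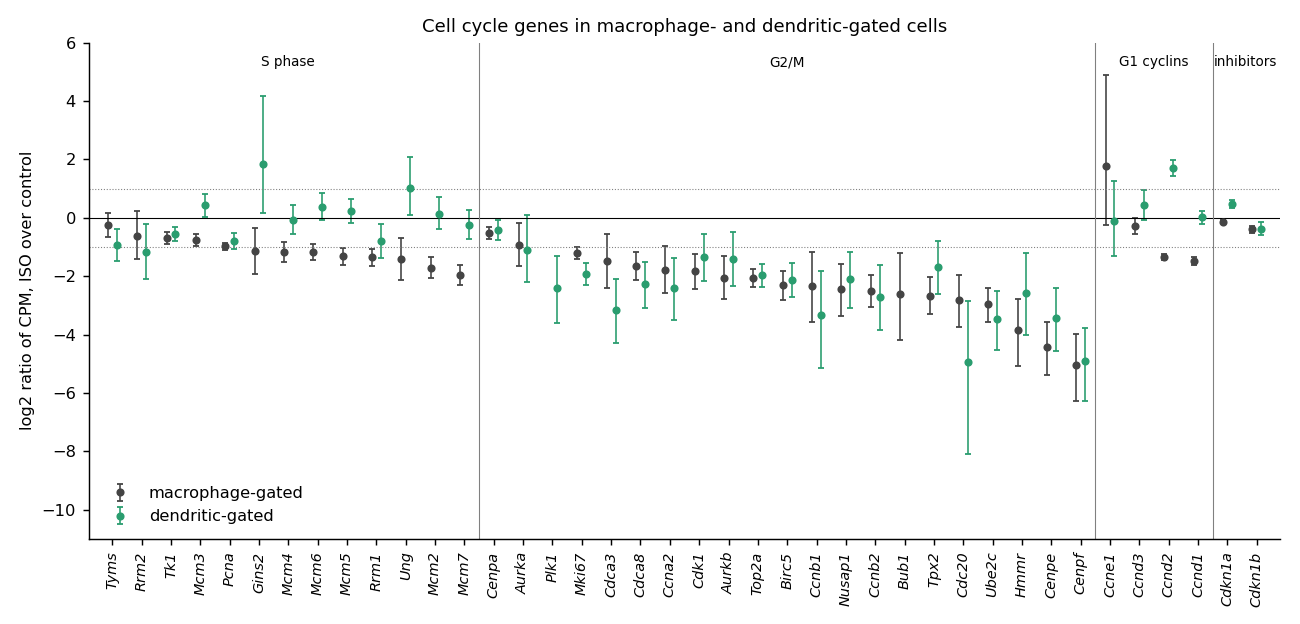
Log2 ratio of CPM, ISO over control (vertical axis), of the cell cycle genes in macrophage-gated (black) and dendritic-gated (green) cells, grouped by phase, with bars for exact 95% counting intervals and dotted lines at 2-fold. Points with under 20 UMIs over both libraries are left out; the MCM genes lie below 0 in macrophage-gated cells (-1.96 to -0.75) and around 0 in dendritic-gated cells (-0.24 to 0.42), while G2/M genes lie below 0 in both.

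The sum of S genes was therefore set against that of G2/M genes in each class. In macrophage-gated cells the 13 S genes summed to 338 and 166 CPM, a log2 ratio of -1.03 (-1.10 to -0.95). The 21 G2/M genes summed to 218 and 70.4 CPM, a log2 ratio of -1.63 (-1.73 to -1.53). The S to G2/M ratio was 1.55 in the control and 2.36 in the ISO library. The difference in log2 of this ratio, ISO minus control, was 0.61, and with longer lists of genes it was -0.27. In the cells that were not G2/M cells it was -0.36, but that set was chosen by its low G2/M UMIs and lost more of them in the control, so the sign there says nothing of the ratio itself. In dendritic-gated cells the S genes were at 518 and 438 CPM, a log2 ratio of -0.24 (-0.36 to -0.13), and the G2/M genes at 536 and 148 CPM, a log2 ratio of -1.86. Their S to G2/M ratio was 0.965 and 2.96. Type 1 dendritic cells had 626 and 606 CPM of S genes and 332 and 186 CPM of G2/M genes. Type 2 dendritic cells had 417 and 387 CPM of S genes and 955 and 139 CPM of G2/M genes, and 1 cell held 53.9% of the control UMIs of the 20 G2/M genes in this subset.

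**Figure D4:**
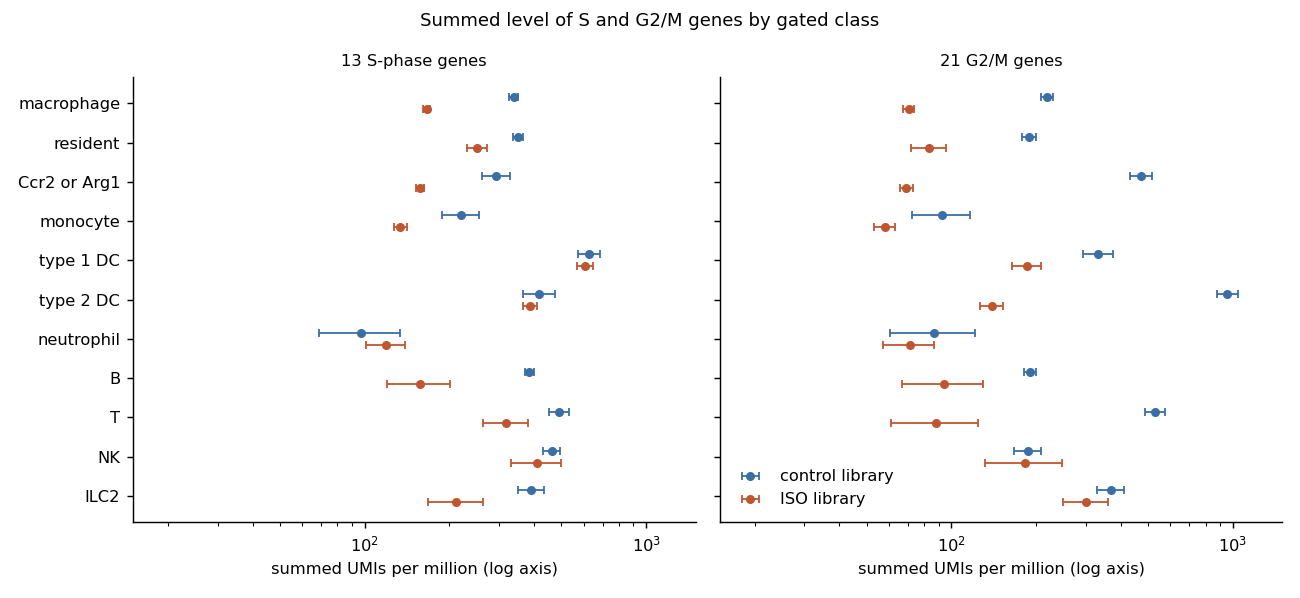
Summed UMIs per 1000000 UMIs (log axis) of the 13 S genes (left) and the 21 G2/M genes (right) in each gated class and subset, for the control (blue) and ISO (red) libraries, with bars for exact 95% counting intervals. Type 2 dendritic cells (DC) stand at 417 and 387 for S genes but at 955 and 139 for G2/M genes.

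The same was counted by cell. After thinning, 2 or more of 12 S genes (without Pcna, which was detected widely) were found in 3 of 136 control dendritic-gated cells, or 2.21%, and in 24 of 577 ISO cells, or 4.16%, a log2 ratio of 0.92 (-0.80 to 3.29). In 2 of 136 and 21 of 577 of these cells, 1.47% and 3.64%, the G2/M genes did not reach their own minimum of 2. Macrophage-gated cells gave 14 of 987, or 1.42%, and 13 of 2204, or 0.590%, a log2 ratio of -1.27 (-2.47 to -0.07). In cells with Ccr2 or Arg1 markers the counts were 0 of 104, which allows up to 2.88%, and 10 of 1929, or 0.518%. Among control lymphocytes, 61 of 2004 B cells (3.04%) and 15 of 435 NK cells (3.45%) met the rule for S genes, but only 4 of 2004 and 2 of 435 that for G2/M genes.

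T cells had 490 and 318 CPM of S genes, and 529 and 88.3 CPM of G2/M genes, but 1 control cell held 53.3% of the UMIs of the 20 G2/M genes. B cells had 384 and 157 CPM of S genes and 190 and 94.4 CPM of G2/M genes. Of these G2/M levels Cenpa made up 135.9 and 69.6 CPM. NK cells had 463 and 408 CPM of S genes and 187 and 182 CPM of G2/M genes, with log2 ratios of -0.18 and -0.04. In ILC2 the G2/M genes gave -0.29, and 1 ISO cell held 95 of the 102 UMIs of the 20 genes. Without the highest cell of each library the log2 ratio was -3.17 in ILC2 and 0.81 (0.01 to 1.54) in NK cells, so the values of these small classes turned on single cells.

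The macrophage subsets show how far the class values followed their makeup. In resident macrophages S genes were at 350 and 251 CPM, a log2 ratio of -0.48, and G2/M genes at 188 and 83.0 CPM, a log2 ratio of -1.18. Mki67 was at 39.9 and 28.8 CPM there, a log2 ratio of -0.47, and Mcm3 gave 0.00. In cells with Ccr2 or Arg1 markers S genes were at 293 and 157 CPM and G2/M genes at 473 and 69.2 CPM, a log2 ratio of -2.77, with 26.4% of the control UMIs of the 20 G2/M genes in 1 cell. Mki67 was at 91.5 and 18.7 CPM in these cells, a log2 ratio of -2.29, and Top2a at 78.0 and 5.36 CPM, a log2 ratio of -3.86.

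Of the D-type cyclins, Ccnd2 was lower in macrophage-gated and higher in dendritic-gated cells, each by 2-fold or more, and the difference between the classes was not tested. Ccnd2 (chr6:127125162-127152193, minus strand) stood at 184.6 CPM (175.3 to 194.3) and at 72.6 CPM (69.2 to 76.0) in macrophage-gated cells, a log2 ratio of -1.35 (-1.45 to -1.25). In dendritic-gated cells the level was 79.6 CPM (66.2 to 94.9) and 257.7 CPM (244.2 to 271.8), a log2 ratio of 1.70 (1.43 to 1.97), and it had a UMI in 33.8% and 68.5% of cells. Higher Ccnd2 was found in type 1 dendritic cells, at 51.7 and 172 CPM, and in type 2 dendritic cells, at 126 and 298 CPM. Lower Ccnd2 was found in resident macrophages, at 180 and 118 CPM, and in cells with Ccr2 or Arg1 markers, at 208 and 67.5 CPM. Ccnd1 was at 99.9 and 35.7 CPM in macrophage-gated cells, a log2 ratio of -1.48. Within resident macrophages it was at 108 and 99.3 CPM, a log2 ratio of -0.12, and in cells with Ccr2 or Arg1 markers at 55.8 and 28.8 CPM, so the class value was larger than that of either subset. In dendritic-gated cells Ccnd1 was at 148 and 150 CPM. Ccnd3 gave -0.29 in macrophage-gated and 0.43 in dendritic-gated cells, under 2-fold in both. Lymphoid cells were rich in Ccnd2, with 610 and 408 CPM in NK cells, 457 and 356 CPM in ILC2, and 359 and 340 CPM in T cells.

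Cdkn1a (chr17:29090976-29100727, plus strand) differed little in the macrophage and monocyte gates and was higher in ISO lymphocytes. Macrophage-gated cells held 947 and 867 CPM, a log2 ratio of -0.13 (-0.17 to -0.09), and monocytes held 836 and 869 CPM. Dendritic-gated cells had 369 and 510 CPM, a log2 ratio of 0.47 (0.34 to 0.60), although it gave -0.14 in type 1 and 0.03 in type 2 dendritic cells. Plasmacytoid dendritic cells, marked by Siglech and Ccr9, held 163 and 332 CPM, a log2 ratio of 1.02 (0.39 to 1.71). Mature dendritic cells, marked by Ccr7 and Fscn1, held 0 and 84 UMIs. B cells held 48.6 CPM of Cdkn1a in the control but 445 CPM after ISO, a log2 ratio of 3.19 (2.93 to 3.45). T cells gave 142 and 589 CPM, NK cells 103 and 343 CPM, and neutrophils 274 and 698 CPM, log2 ratios of 2.05, 1.74 and 1.35. ILC2 held 322 and 583 CPM, a log2 ratio of 0.86 (0.60 to 1.12), with a median macrophage marker score of 1.69 and 1.92. In the B cell, T cell, NK cell and neutrophil gates macrophage transcripts were higher too. The median macrophage marker score was 0 in control and 1.28 in ISO B cells, 0 and 1.97 in T cells, 0 and 1.90 in NK cells, and 0 and 2.76 in neutrophils, and their part in the higher Cdkn1a was not tested. The same holds for Ccnd1, at 5.72 and 34.8 CPM in B cells, 8.28 and 26.8 CPM in T cells, and 3.95 and 34.7 CPM in NK cells.

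Cdkn1b was lower in most classes. Monocytes held 251.6 CPM (217.8 to 289.1) and 106.7 CPM (100.1 to 113.6), a log2 ratio of -1.24 (-1.46 to -1.01). B cells gave 212 and 109 CPM, T cells 252 and 128 CPM, and neutrophils 292 and 162 CPM, log2 ratios of -0.96, -0.97 and -0.85. Macrophage-gated cells gave -0.39 and dendritic-gated cells -0.37, below 0 beyond counting error, beside medians of -0.28 and -0.07 for all genes. ILC2 gave -0.09 (-0.60 to 0.39). The part of macrophage transcripts in the values of B cells, T cells and neutrophils was not tested.

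**Figure D5:**
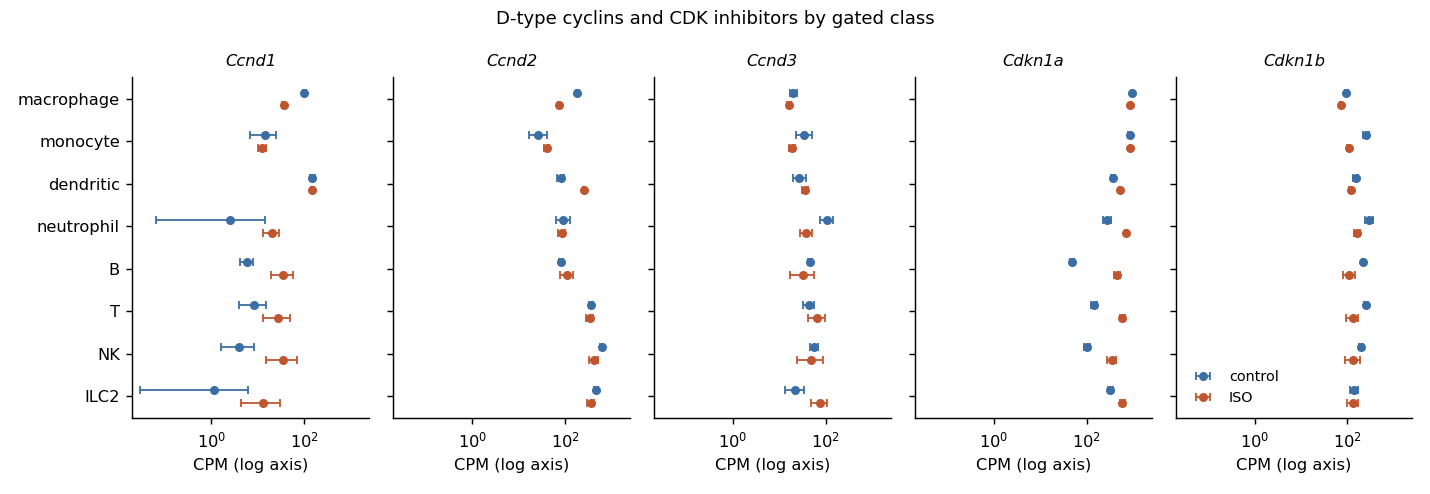
CPM (log axis) of the 3 D-type cyclins and the CDK inhibitors Cdkn1a and Cdkn1b in each gated class, for the control (blue) and ISO (red) libraries, with bars for exact 95% counting intervals. Ccnd2 is lower in ISO macrophage-gated cells (184.6 and 72.6) and higher in ISO dendritic-gated cells (79.6 and 257.7), and Cdkn1a is higher in ISO B cells (48.6 and 445).

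Cell cycle genes outside the 40 were counted in the same way. Of 38 other S genes with enough UMIs in macrophage-gated cells, 20 were lower and 0 higher by 2-fold or more, beside 22.0% and 8.70% of all genes, with a median log2 ratio of -1.19 beside -0.28. The DNA polymerase gene Pola1 was at 18.2 and 4.16 CPM, and the hemimethylated DNA reader Uhrf1 at 8.03 and 1.88 CPM. Of 44 other G2/M genes, 25 were lower and 0 higher, with a median of -1.19, nearer to 0 than the -2.31 of the G2/M genes among the 40. Stmn1, a microtubule destabilizer, was at 48.3 and 6.37 CPM, Anln, of the contractile ring, at 9.15 and 0.653 CPM, and the condensin subunit Ncapd2 gave -3.16. In dendritic-gated cells 24 of 39 other G2/M genes but 4 of 36 other S genes were lower, beside 10.8% of all genes, with medians of -1.22 and -0.22 beside -0.07.

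The lists of regulators are set beside the same shares of all genes, 22.0% lower and 8.70% higher. Of 29 CDK, E2F and pocket protein genes in macrophage-gated cells, 7 were lower and 1, Mxd1, was higher, with a median of -0.21, so the share called was near that of all genes. Mxd1, an antagonist of Myc, was at 41.3 and 189 CPM, a log2 ratio of 2.20. Rbl2, the pocket protein p130, gave -1.62, and the E2F partner Tfdp2 gave -2.10. Of 8 CDK inhibitor genes, a list that includes Cdkn1a and Cdkn1b, 4 were lower and 0 higher, with a median of -1.24. Cdkn1c (p57) was at 21.4 and 2.65 CPM, Cdkn2c (p18) at 20.1 and 4.65 CPM, and Cdkn2a gave -2.09. Of 18 p53 targets, 2 were lower and 2 higher, with a median of -0.05. Sesn1 was at 55.9 and 12.6 CPM, Trp53inp1 gave -1.77, and Bax, which promotes apoptosis, was at 162 and 395 CPM. Of 14 growth factor genes, 7 were lower and 3 higher, with a median of -0.68. Igf1 was at 222 and 27.2 CPM and Pdgfb at 82.9 and 13.9 CPM, while Csf1, the macrophage growth factor, was at 5.64 and 33.2 CPM, a log2 ratio of 2.56. In dendritic-gated cells Csf1 gave 1.94, Mxd1 0.61 and Bax 0.76. In monocytes 10 of 24 other S genes and 8 of 27 other G2/M genes were lower, beside 17.6% of all genes, and 0 of either list were higher.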

How the data were processed

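CD45+ heart cells were profiled with the 10x 3' v3 kit in 1 control and 1 ISO library. Per the submitters' processing notes, the authors used bcl2fastq 2.19.1.403, UMI-tools 1.0.0, STAR 2.7.3a and featureCounts 1.6.4 of Subread on mm10. The strand setting is not given in the sources used here. The deposited values are counts of UMIs per gene and barcode without normalization. The treatment label names ISO for both libraries, and the groups were taken from the sample titles.

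The study's filters were used, which require over 500 but below 6000 genes per cell and less than 25% of UMIs from mitochondrial genes. A cell's score for a class was the sum, over the class markers, of the natural log of 1 plus the UMIs per 10000 UMIs. The limits were 6 for macrophages (with a score of at least 0.5 of the monocyte score), monocytes, NK cells, ILC2 and stromal cells, 4.5 for dendritic cells (with a score above the macrophage score) and T cells, 4 for plasmacytoid cells, 5 for B and mast cells, and 10 for neutrophils. Barcodes that passed gates of 2 lineages were left out of the classes. For shares, cells were thinned to 1000 UMIs, which left out 9 gated control cells. Levels are UMIs summed over a class per 1000000 UMIs (CPM). Shares have exact Clopper-Pearson and sums exact Poisson 95% intervals, and log2 ratios condition on the summed counts. The intervals of sums treat each UMI as independent and leave out the spread between cells. A count of 0 allows up to 3 counts of the total. For calls of 2-fold or more, 0.5 UMI was added and at least 20 UMIs over both libraries were required, so a call near the limit can differ from the ratio printed.

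All 40 genes were accounted for, in full where a class had 50 UMIs in the higher library, with other genes named where a value turned on them. Of each further list, the 3 genes with the largest change among those with 50 UMIs were named from macrophage-gated cells. Of these, 1 gene is not reported here. The 40 genes and the lists were chosen with earlier results of these data known. The rules for G2/M cells, the omission of Cenpa and Pcna, and the motif words were set after the data were seen. Doublets were scored with Scrublet in scanpy, and the highest scores, at 0.8% per 1000 barcodes, were left out as an alternative.

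Python 3.11.15, numpy 2.4.6, scipy 1.17.1, pandas 2.3.3, scanpy 1.11.5 and matplotlib 3.10.9 were used. Gene positions came from the GENCODE vM21 annotation of GRCm38. The ratio step was tested on simulated data. Alternatives covered thinning, gates, barcodes of 2 lineages, doublets, filters, marker genes, gene lists, G2/M cells and scaling.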

Additional observations from a re-analysis of the deposited data

Results flagged for a closer look

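The log2 ratios of 3 genes had opposite signs in macrophage-gated and dendritic-gated cells, with counting intervals on either side of 0. Ccnd2 gave -1.35 in macrophage-gated and 1.70 in dendritic-gated cells. Mcm3 gave -0.75 and 0.42, with 0.00 in resident macrophages. Cdkn1a gave -0.13 and 0.47, with -0.14 in type 1 and 0.03 in type 2 dendritic cells. The higher level was seen in plasmacytoid dendritic cells, at 1.02 (0.39 to 1.71), and mature dendritic cells held 0 and 84 UMIs. The difference between the classes was not tested, since each library is 1 sample.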

How the results depend on the processing

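No paired analysis was possible because each group is 1 library, and for the same reason no replicate could be left out. Of 60 alternatives to the 5 main values, 32 moved them by less than their counting interval, 26 moved them further and 2 turned the sign of a value whose interval left out 0. The log2 ratio of the share of macrophage-gated cells with Mki67 or Top2a (-0.55) became -1.48 with Top2a alone, -2.52 with at least 2 UMIs of the G2/M genes, -3.16 with at least 2 of 20 G2/M genes, and -2.61 for G2/M cells without thinning. Over all gated cells (0.39) it became 0.86 with Mki67 alone, -1.0 with Top2a alone, and -1.65, -1.81 and -1.22 by the same 3 rules. In the last 4 settings the sign also turned, from a value whose interval took in 0, and they count other cells, so the direction over all gated cells depends on which genes mark a cell. The S ratio in macrophage-gated cells (-1.03) became -0.90 after thinning to 1000 UMIs, -0.91 with stricter gates, -0.92 with barcodes of 2 lineages kept, -1.18 as the median over genes, -0.86 with longer lists, -0.86 without G2/M cells, and -1.13 with Gm26924 and mitochondrial genes left out. For the G2/M ratio (-1.63) the same settings gave -1.48, -1.68, -1.47, -2.32, -0.59, -0.50 and -1.74, and it was -1.99 without Pcna and Cenpa. The difference in log2 S over G2/M (0.61) became 0.78 with stricter gates, 1.14 as medians and 0.94 without Pcna and Cenpa. It was reversed with longer lists, to -0.27, and the cause was not tested. It was also reversed without G2/M cells, to -0.36, where the choice of cells removes more G2/M UMIs from the control by construction. The settings on G2/M cells, Pcna and Cenpa, 2 of 20 genes, and Gm26924 were chosen after seeing the data. Gm26924 took 5.54% of control and 0.992% of ISO macrophage UMIs, and leaving it out with the mitochondrial genes lowers every other log2 ratio there by 0.10. In the ISO library a count of 0 allows up to 7.32% of 41 NK cells and 4.62% of 65 B cells, which limits what these classes can show.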

Other observations

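Barcodes with markers of 2 lineages held 43 of the 101 control G2/M cells and 10 of the 37 ISO G2/M cells, 3.22% and 1.14% of such barcodes, at median depths of 12960 and 12402 UMIs over all of them. Of control barcodes with macrophage and T cell markers 17 of 412 were G2/M cells, or 4.13%, and of those with macrophage and B cell markers 17 of 686, or 2.48%. In the ISO library the most common pair was macrophage and neutrophil, with 5 G2/M cells of 582, or 0.859%.

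Barcodes with 6000 genes or more, which the filter removed, numbered 134 in the control and 65 in the ISO library. Of these 27 (20.1%, 13.7 to 27.9) and 7 (10.8%, 4.44 to 20.9) met the rule for G2/M cells, and 118 and 42 carried markers of 2 lineages.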
